A study of Mus musculus with 3 samples.

Results

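The Hox genes of the mouse were examined by cluster and by paralogue group on 3 2-colour oligonucleotide arrays that compared the early kidney with the mesenchyme from which its nephrons form. Members were all genes whose symbol consists of Hox, a cluster letter from a to d and a paralogue number, reported by an oligo that the platform annotation gives to 1 gene only. This gave 34 genes on 35 oligos, of 39 such genes in the RefSeq gene table and of 15096 named genes on the array. A value on all 3 arrays was present for 33 of them, 9 of the Hoxa, 7 of the Hoxb, 8 of the Hoxc and 9 of the Hoxd cluster. Hoxa13 had a value on arrays 1 and 2 only, and the remaining genes of the table were not analysed here.

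Each array was hybridised with amplified RNA of kidney at 13.5 dpc (days post coitum) in channel 1 and of metanephric mesenchyme at 10.5 dpc in channel 2. Both tissues were microdissected from CD1 embryos, an outbred mouse stock, with both sexes pooled, and no genetic change, treatment or common reference is given. All 3 arrays belong to 1 group. The labels do not say whether separate pools of tissue were used, so the p-values reflect the spread among 3 arrays that may be technical repeats. The array of the dye swap, in which the dyes are exchanged, is not given, so effects of dye and of array cannot be told apart. Which RNA was the numerator, and which dye each carried, is not stated in the labels. Each value therefore keeps the sign of its deposited log2 ratio, called the positive or negative side, and neither side is read as higher in 1 of the tissues. A log2 ratio of 1 is a 2-fold difference. The ratio gives no level of a gene, and in tissue RNA fewer cells of a type and less RNA per cell cannot be told apart.

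Hox genes encode homeodomain transcription factors that give cells their position along the head-to-tail axis. They lie in 4 clusters, and genes of the same number in different clusters, the paralogues, descend from 1 ancestral gene. Low numbers lie at the 3′ end of a cluster and are switched on early and towards the head, and high numbers lie at the 5′ end and are switched on later and towards the tail, up to paralogue group 13. In the kidney the genes of group 11 act in the metanephric mesenchyme with Eya1 and Pax2 to drive Six2 and Gdnf, those of group 10 act in the stroma, and Hoxb7 is active in the ureteric bud and its branches. Groups 1 to 3 are called anterior below, groups 4 to 8 central and groups 9 to 13 posterior.

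The promoters below belong to genes on both sides of 0, Hoxa5 and Hoxd4 on the positive side and Hoxd13 on the negative side. Of the members with a RefSeq promoter window, these had the smallest unadjusted p in the test across all genes. Each sequence is the 250 bases before the start in GRCm38.p6, from RefSeq, read 5′ to 3′ along the gene's own strand. Capitals mark TAAT, the core bound by most homeodomains, and TTTAT, part of the site favoured by posterior Hox and Cdx proteins, each on either strand (ATTA and ATAAA on the other).
Hoxa5, chr6:52204588-52204837, minus strand: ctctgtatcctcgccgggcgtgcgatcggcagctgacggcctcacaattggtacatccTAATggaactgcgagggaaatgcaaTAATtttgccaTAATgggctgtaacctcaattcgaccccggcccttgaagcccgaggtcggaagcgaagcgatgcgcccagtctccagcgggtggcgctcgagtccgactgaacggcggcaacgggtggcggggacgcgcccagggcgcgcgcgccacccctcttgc
Hoxd4, chr2:74721728-74721977, plus strand: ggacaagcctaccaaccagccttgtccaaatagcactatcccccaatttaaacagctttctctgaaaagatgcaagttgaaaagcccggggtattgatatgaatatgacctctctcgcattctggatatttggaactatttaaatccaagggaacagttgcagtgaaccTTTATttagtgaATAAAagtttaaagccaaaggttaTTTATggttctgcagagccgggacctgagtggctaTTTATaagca
Hoxd13, chr2:74667975-74668224, plus strand: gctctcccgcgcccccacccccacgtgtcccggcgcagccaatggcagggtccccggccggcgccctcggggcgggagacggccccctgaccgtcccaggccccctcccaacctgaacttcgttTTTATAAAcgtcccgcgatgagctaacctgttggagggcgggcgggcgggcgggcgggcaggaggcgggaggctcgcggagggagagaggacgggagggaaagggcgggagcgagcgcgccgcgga
In these windows Hoxa5 held 3 matches to TAAT and 0 to TTTAT, while Hoxd4 held 4 and Hoxd13 held 2 matches to TTTAT and both held 0 to TAAT. Both matches of Hoxd13 overlap in 1 stretch. Windows were found for 20 of the 34 genes, 22 windows in all. TAAT was in 16 of the 22 (72.7%), against 54.9% of the 32851 windows of this length in the RefSeq table, and TTTAT in 8 of 22 (36.4%), against 37.3%. The median GC content was 58.6% in the Hox windows and 52.4% in all windows. These letters describe the windows only, since the arrays measure no binding.

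Hox genes stood on both sides of 0, the tested central genes of the Hoxb and Hoxd clusters positive and the far ends of those clusters negative. Central genes of the Hoxa and Hoxc clusters had means on both sides. Of the 33 means 18 were positive, against 50.3% of all genes. No Hox gene passed limma with Benjamini-Hochberg adjustment over all 19635 genes (0 of 33, lowest adjusted p = 0.107; 0.00509% of all genes were called). At an unadjusted p under 0.05 there were 12 Hox genes, or 36.4%, against 16.8% of all genes. On the positive side these were 8 genes, Hoxa5, Hoxb3, Hoxb4, Hoxb5, Hoxb6, Hoxd4, Hoxd8 and Hoxd10, against 8.99% of all genes. On the negative side they were 4 genes, Hoxa9, Hoxb9, Hoxb13 and Hoxd13, against 7.83% of all genes. The mean exceeded 1 in size for 5 Hox genes (15.2%, against 5.33% of all genes), 2 of them positive and 3 negative (2.35% and 2.98% of all genes). Of 33, 18 had 1 sign on all 3 arrays (54.5%, against 41.3% of all genes), 11 positive and 7 negative (21.5% and 19.9% of all genes). The median of the 33 means was 0.058, against 0.0020 for all genes, and the SD between genes was 0.86 against 0.50. Without array 1 the 12 became 6, all of them among the 12 (Hoxa5, Hoxb6, Hoxb9, Hoxb13, Hoxd4 and Hoxd13), in a fit where 8.53% of all genes had an unadjusted p under 0.05.

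**Figure D1:**
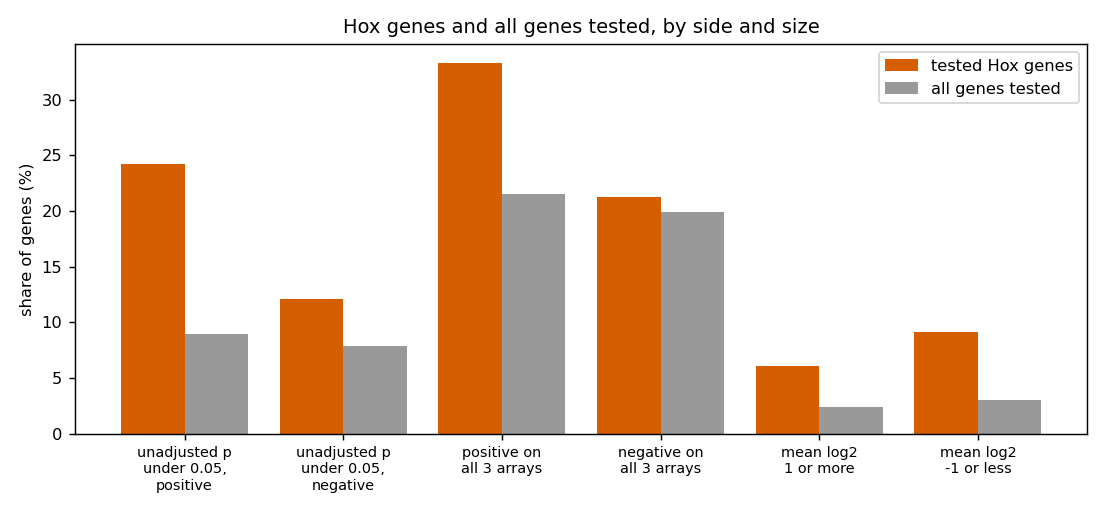
Shares of the 33 Hox genes (orange) and of all 19635 genes tested (grey), in percent, by side of the deposited ratio, for an unadjusted limma p under 0.05, the same sign on all 3 arrays and a mean log2 ratio of 1 or more in size. The Hox bar is the taller in all 6 pairs, by the least for genes negative on all 3 arrays, at 21.2% against 19.9%.

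Over all genes tested, array 3 stood apart from the others, with a Pearson's r across genes of 0.46 between arrays 1 and 2, 0.17 between 1 and 3 and 0.16 between 2 and 3. Over the 33 Hox genes r was 0.57, 0.26 and 0.58, and Spearman's rank correlation 0.68, 0.43 and 0.40. Without Hoxc12, whose arrays opposed each other, r was 0.63, 0.68 and 0.70 over 32 genes, and the rank correlation 0.67, 0.56 and 0.48. Among the Hox genes array 3 stood apart by rank, with or without Hoxc12. Hoxc12 was picked for its opposed arrays, so a rise in r with array 3 is built into that choice. The r without Hoxc12 therefore cannot show whether array 3 stood apart. All these correlations are descriptions across genes, which are not independent replicates. The number of arrays limits the precision, with a median SE of a mean of 0.19 on the log2 scale.

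Central genes held the highest log2 ratios of the family. Hoxa5, which patterns the neck and upper trunk and the lung, stood at 2.35, 1.22 and 1.79 on arrays 1, 2 and 3. All 3 values lay above 1, and the mean of 1.78 ± 0.57 (SD, n = 3 arrays), a 3.45-fold difference, was the 58th highest of all genes tested (limma adjusted p = 0.110). Hoxb6, a gene of trunk and limb mesenchyme, stood at 1.61, 1.09 and 1.29, again above 1 throughout, with a mean of 1.33 ± 0.26, a 2.51-fold difference (limma adjusted p = 0.109). Hoxd4, a gene of the hindbrain and neck vertebrae, had 0.65, 0.62 and 0.78, with a mean of 0.68 ± 0.087 (limma adjusted p = 0.158). Its arrays lay within 0.17 of each other.

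The remaining central genes that were positive on all 3 arrays had smaller means. Hoxb5, active in trunk mesoderm and in the gut's nerve cells, had 0.58, 0.49 and 0.52 (mean 0.53 ± 0.047, limma adjusted p = 0.207). Hoxb4, known from neck vertebrae and blood stem cells, had 1.02, 0.32 and 0.42 (mean 0.59 ± 0.38, limma adjusted p = 0.278), and without array 1, which was the highest, the mean was 0.37. Hoxd8, a gene of the trunk, had 0.59, 0.24 and 0.52 (mean 0.45 ± 0.19, limma adjusted p = 0.282). Hoxb7, the gene of the ureteric bud, stood lower and did not reach an unadjusted p of 0.05, at 0.15, 0.23 and 0.33, with all 3 arrays positive and a mean of 0.24 ± 0.089 (limma adjusted p = 0.481).

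Of the 14 central genes 7 were positive and 1, Hoxc5, negative on all 3 arrays. Hoxc5 had a mean of -0.45 ± 0.38, and the other 6 had arrays on both sides of 0. Among these Hoxa7 had -0.89, 0.34 and 0.34, with array 1 alone on the negative side and a mean of -0.069 ± 0.71. Hoxc6 had -0.99, -0.75 and 0.50 (mean -0.41 ± 0.80), and Hoxc8, which acts in motor neurons, had -0.93, -0.10 and 1.13 (mean 0.032 ± 1.03). In both Hoxc6 and Hoxc8 array 3 was alone on the positive side. The means of Hoxa4, Hoxa6 and Hoxc4 were -0.016 ± 0.54, 0.21 ± 0.46 and 0.12 ± 0.22.

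Posterior genes held the lowest log2 ratios. Hoxd13, which shapes digits, the genital tubercle and the hind end of the gut, stood at -2.70, -1.68 and -2.02 on arrays 1, 2 and 3. All 3 lay below -1.5, and the mean of -2.13 ± 0.52, a 4.39-fold difference, had the smallest p of the family (limma adjusted p = 0.107). Hoxb13, a gene of the tail bud and the urogenital sinus, had -1.05, -3.37 and -1.56, with a mean of -1.99 ± 1.22 (limma adjusted p = 0.188). Array 2 lay well below the other two, and without it the mean was -1.30. Hoxa13, which acts with Hoxd13 in limb and urogenital tissue, had -1.03 and -0.33 on arrays 1 and 2 and no value on array 3. Hoxc13, known from hair and nail, stood near 0 at -0.27, -0.13 and -0.015 (mean -0.14 ± 0.13, limma adjusted p = 0.688). All 3 tested genes of group 13 were thus negative on all 3 arrays, and their means differed by up to 1.99.

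Group 9 was also spread widely. Hoxb9, which takes part in rib and mammary patterning, had -1.13, -4.02 and -2.35, and its mean of -2.50 ± 1.45, a 5.66-fold difference, was the 18th lowest of all genes tested (limma adjusted p = 0.175). As for Hoxb13, array 2 was the lowest and array 1 the nearest to 0. Hoxa9, a gene of the trunk and of blood progenitors, had -1.51, -0.057 and -1.20 (mean -0.92 ± 0.76, limma adjusted p = 0.286), so array 2 was here the nearest to 0. Hoxd9 had -0.17, -0.21 and -0.79 (mean -0.39 ± 0.35, limma adjusted p = 0.407). Hoxc9, which sets thoracic motor neuron identity, lay on the other side at 0.011, 0.24 and 0.050 (mean 0.10 ± 0.12, limma adjusted p = 0.772). The means of Hoxb9 and Hoxc9 stood 2.60 apart, the widest span within a paralogue group.

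The means of groups 10 and 11, the groups with known roles in kidney mesenchyme and stroma, stood near 0 or on the positive side, that of Hoxa11 slightly negative. Hoxd10 had 0.73, 0.76 and 0.13, positive on all 3 arrays, with a mean of 0.54 ± 0.36 (limma adjusted p = 0.293). Hoxa10 had 0.52, -0.10 and 1.41 (mean 0.61 ± 0.76, limma adjusted p = 0.431), with array 2 alone on the negative side. The mean of Hoxa10 was 0.97 without array 2 and 0.21 without array 3. Hoxc10 had 0.33, -0.16 and 0.031 (mean 0.066 ± 0.25, limma adjusted p = 0.876). In group 11, Hoxd11 had -0.053, 0.15 and 0.076, a mean of 0.058 ± 0.10 (limma adjusted p = 0.873). Hoxa11 had -0.25, -0.53 and 0.21, a mean of -0.19 ± 0.37 (limma adjusted p = 0.685), and the mean was -0.39 without array 3. For both genes of group 11 the arrays lay on both sides of 0, and a p above the threshold does not show that the tissues were alike.

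The genes of group 12 could not be placed. Hoxc12, known from the hair follicle, had -2.74, -0.26 and 3.48 on arrays 1, 2 and 3. Its values ran from strongly negative to strongly positive, and its SD of 3.13 around a mean of 0.16 was at the 99.9th percentile of all genes tested. Hoxd12, a limb gene, had 0.23, 0.27 and -1.43 (mean -0.31 ± 0.97), with array 3 apart from the others.

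Anterior genes stayed nearer to 0, apart from Hoxb3. Hoxb3, a gene of the hindbrain and pharyngeal arches, was the only member with more than 1 oligo. The oligo of accession X62311 had 0.85, 0.65 and 0.82, a mean of 0.77 ± 0.11. The oligo of X66177 had -0.38, 0.47 and 0.33, a mean of 0.14 ± 0.46. The second oligo lay below the first on every array and on the other side of 0 on array 1, and their average was 0.45 ± 0.19 (limma adjusted p = 0.281). Hoxd1, known from sensory neurons, had -0.75, -0.13 and 0.28 (mean -0.20 ± 0.52). Hoxa2, which patterns the second pharyngeal arch, had a mean of -0.24 ± 0.30. Hoxa3, needed for the thymus and parathyroid, had -0.042 ± 0.11 and Hoxd3, a gene of the uppermost vertebrae, 0.11 ± 0.091.

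**Figure D2:**
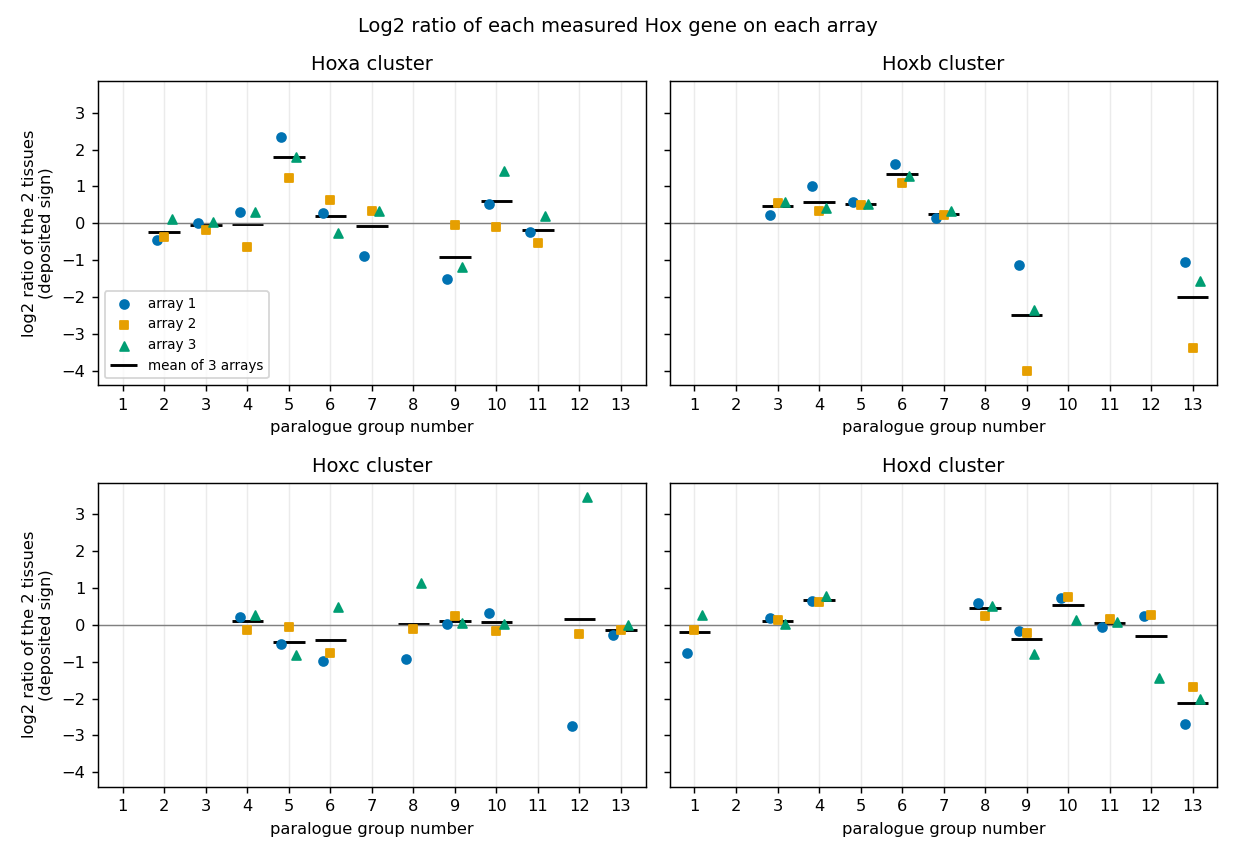
Log2 ratio of each tested Hox gene (vertical axis, deposited sign) against its paralogue group number, in a panel for each cluster, with a point for each array and a bar at the mean of the 3. In the Hoxb panel groups 3 to 7 lie above 0 in the mean and groups 9 and 13 below -1 on every array, while Hoxc12 spans -2.74 to 3.48.

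By position, the medians were -0.042 for 5 anterior, 0.22 for 14 central and -0.16 for 14 posterior genes. On arrays 1, 2 and 3 the central median was 0.28, 0.28 and 0.46 and the posterior median -0.21, -0.15 and 0.0084. The pooled central median was thus the higher on each array. Within the Hoxc cluster the central median was -0.19 and the posterior 0.084 over the means, though the central was the higher on arrays 2 and 3. Positive on all 3 arrays were 4 of 4 tested central genes in Hoxb and 2 of 2 in Hoxd. In Hoxa these were 1 of 4 and in Hoxc 0 of 4 (21.5% of all genes). With 1 array left out, the median ran from 0.27 to 0.35 (without array 1) for central, from -0.20 to -0.081 (without array 2) for posterior and from -0.079 to 0.075 for anterior genes, whose median was positive without array 1 or array 2. At an unadjusted p under 0.05 there were 6 positive and 0 negative central genes, and 1 positive and 4 negative posterior genes, beside 8.99% positive and 7.83% negative of all genes. Over all 33 genes Spearman's rank correlation between paralogue number and mean log2 ratio was -0.28, and it was -0.32, -0.25 and -0.32 on arrays 1, 2 and 3. The points share arrays and clusters, and no test was made of this relation.

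The clusters differed in how far the means of their genes lay apart. The Hoxb cluster had the widest spread, with an SD between genes of 1.45, and all 7 of its genes had 1 sign on all 3 arrays, 5 positive and 2 negative. From Hoxb7 to Hoxb9 the log2 ratio differed by -1.28, -4.25 and -2.68 on arrays 1, 2 and 3, with a mean difference of -2.74 ± 1.48, across the place of Hoxb8. Hoxb6 stood above Hoxb5 by 0.80 ± 0.22, and the step from Hoxb6 to Hoxb7 was -1.09 ± 0.32, each in 1 direction on every array. Spearman's rank correlation with paralogue number was -0.64 over the 7 genes.

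In the Hoxd cluster the SD between genes was 0.84 and the ratios went up and down along the cluster rather than in 1 direction. Hoxd10 stood above Hoxd9 by 0.90, 0.97 and 0.92 on arrays 1, 2 and 3, a step of 0.93 ± 0.039 that was among the closest between arrays. From Hoxd12 to Hoxd13 the steps were -2.93, -1.94 and -0.59, and from Hoxd8 to Hoxd9 the mean step was -0.84 ± 0.44, negative on every array. The rank correlation with paralogue number was -0.47 over 9 genes, but -0.12 and -0.033 on arrays 1 and 2 against -0.67 on array 3.

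In the Hoxa cluster 7 of 9 genes had arrays on both sides of 0, and Hoxa5 stood apart from both neighbours, above Hoxa4 by 1.80 ± 0.28, with a step of -1.58 ± 0.86 from it to Hoxa6, on every array. The rank correlation was -0.033 over the 9 genes. The Hoxc cluster had the smallest spread of means. Opposed arrays partly cancel in a mean, as for Hoxc12 with -2.74, -0.26 and 3.48, so this spread does not describe single arrays. Its 8 means lay between -0.45 and 0.16 with an SD between genes of 0.24, 0 of them had an unadjusted p under 0.05, and 5 had arrays on both sides of 0. The rank correlation with paralogue number was 0.21 over the 8 means, positive where those of the other clusters were negative, and -0.095, -0.12 and 0.024 on arrays 1, 2 and 3.

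**Figure D3:**
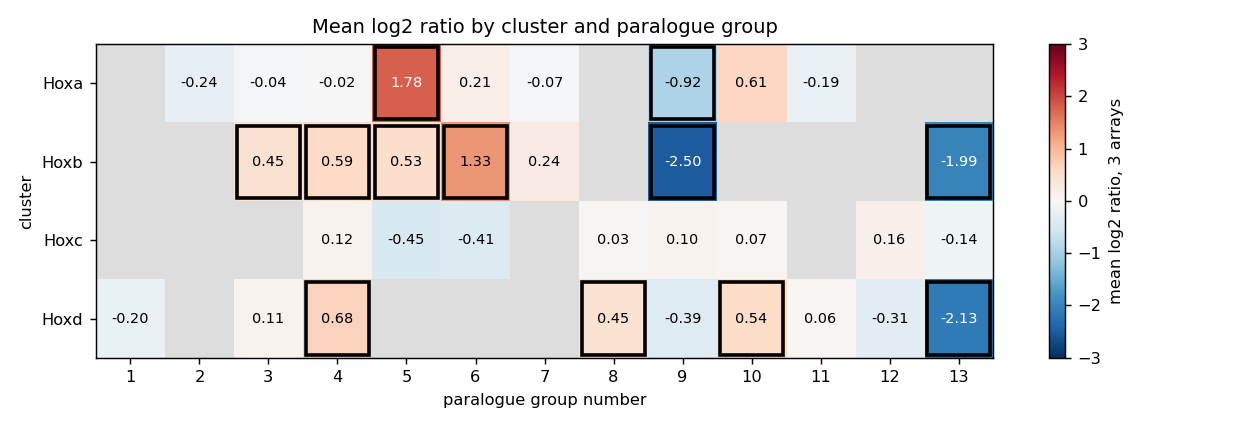
Mean log2 ratio over 3 arrays (colour and printed value, deposited sign) by cluster (rows) and paralogue group (columns), with black frames around genes of an unadjusted limma p under 0.05 and grey cells for genes that do not exist or were not tested. The framed cells of groups 3 to 8 and that of Hoxd10 are all red, and those of groups 9 and 13 are all blue.

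Paralogues of the same number did not hold the same ratio in every cluster. In group 5 the means ran from -0.45 for Hoxc5 to 1.78 for Hoxa5, a span of 2.24, and in group 6 from -0.41 for Hoxc6 to 1.33 for Hoxb6, a span of 1.74. In group 4 the span was 0.70, with Hoxb4 and Hoxd4 above Hoxa4 and Hoxc4 on every array. In groups 7, 8 and 11, with 2 tested genes each, the spans were 0.31, 0.42 and 0.25. No test of these differences was made.

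Genes known to work with or upstream of the Hox proteins were described in the same way, and 0 of them passed limma over all genes. Of the TALE homeodomain cofactors, which bind DNA together with Hox proteins, 6 were measured, with a median of 0.11. Meis2 alone had an unadjusted p under 0.05 (16.8% of all genes), at 0.77 ± 0.26 (limma adjusted p = 0.170), and Meis3 was the lowest at -0.38 ± 0.24. Among the partners of group 11 in the kidney, 10 were measured with a median of 0.18. Wt1, a transcription factor of the mesenchyme, stood at 1.84 ± 0.27, Six2, which maintains nephron progenitors, at 0.78 ± 0.096 and Gdnf, the ligand of the ureteric bud's receptor, at 0.68 ± 0.25, while Osr1, a factor of the intermediate mesoderm, stood at -0.57 ± 0.067. Eya1 and Pax2, with which the group 11 proteins act, stood at 0.27 ± 0.35 and 0.29 ± 0.30.

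Chromatin regulators of the clusters, the Polycomb proteins that keep Hox genes silent and the trithorax-type proteins that keep them active, went both ways. Of 16 measured, 3 were positive and 2 negative at an unadjusted p under 0.05 (8.99% and 7.83% of all genes), with a median of -0.12. Cbx7 and Cbx2, alternative readers in the same Polycomb complex, stood on opposite sides, at 1.20, 1.59 and 1.63 for Cbx7 and at -0.82, -0.71 and -1.30 for Cbx2 on arrays 1, 2 and 3. Their means were 1.47 ± 0.24 and -0.94 ± 0.31 (limma adjusted p = 0.107 and 0.145). Kmt2a, the trithorax-type methyltransferase MLL1, stood at 0.70 ± 0.24 and the histone demethylase Kdm6a at 0.55 ± 0.16. Ezh2, the methyltransferase of Polycomb, had the lowest mean, but from 1 array: -0.23, -0.16 and -5.98. Of 14 signalling regulators, with a median of -0.0058, Fgf8, a growth factor of the tail bud, stood at -0.58 ± 0.21. Cdx2, a caudal factor upstream of Hox genes, stood at -1.05 ± 0.74 with -1.06, -0.31 and -1.78. The other Cdx genes had arrays on both sides of 0, Cdx1 at -0.64, 0.11 and 0.61 and Cdx4 at -2.15, -1.14 and 3.00. The highest was Gli3, the hedgehog pathway factor, at 0.27 ± 0.51.

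Homeobox genes related to the Hox genes but outside the clusters had a median of -0.24 over 12 genes, and at an unadjusted p under 0.05 there were 2 positive and 3 negative ones (8.99% and 7.83% of all genes). Evx1, which flanks the group 13 end of the Hoxa cluster, stood at -1.43, -1.31 and -1.77, below -1 on every array (mean -1.50 ± 0.24, limma adjusted p = 0.107). Evx2, its counterpart at the Hoxd cluster, had 0.27, 0.15 and -2.71, with array 3 alone on the negative side. Gbx2, a factor of the midbrain border and hindgut region, stood at -1.18 ± 0.65, and on the other side Meox2 stood at 0.55 ± 0.10 and Gsx2 at 0.42 ± 0.096.

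Markers of other tissues lay on both sides as well, and their part in the Hox ratios was not tested. Of all genes 50.3% had a positive mean, the share beside which the counts of means below stand. Of 12 kidney mesenchyme markers 9 had a positive mean and the median was 0.70, with array medians from 0.72 to 0.80. The group holds Crym at 2.02 ± 0.20 and Tcf21 at 1.57 ± 0.26, and on the other side Osr1 at -0.57 ± 0.067. At an unadjusted p under 0.05 there were 7 positive and 1 negative of these markers (8.99% and 7.83% of all genes). Of 15 markers of limb and body wall mesenchyme 10 had a negative mean, the median was -0.46, and 7 had an unadjusted p under 0.05, all negative (7.83% of all genes). Pitx1, the factor of the hindlimb field, was the lowest at -2.51 ± 0.42. Somite, spinal cord and tail bud markers had medians of -0.38 over 11, -0.36 over 15 and -0.092 over 11 genes, with array medians from -0.57 to -0.13 for somite, from -0.57 to -0.22 for spinal cord and from -0.33 to -0.12 for tail bud. Gut tube markers had a median of -0.067 over 13 genes, from -0.17 to 0.011 by array, with 5 positive and 8 negative means. Among factors of gut mesenchyme, Nkx2-3 was the lowest at -2.39 ± 0.043 and Barx1 the highest at 0.94 ± 0.35, each with 1 sign on all 3 arrays. Red cell genes had a median of -1.05 over 10 genes, from -1.42 to -0.65 by array, and 0 of them had a positive mean. Their means ran from -3.95 ± 0.32 for Hbb-bh1 to -0.062 ± 0.26 for Hbb-y, and 6 of the 10 had an unadjusted p under 0.05 (7.83% of all genes on the negative side). Since a ratio gives no level, none of these lists shows whether a marker was present or absent.

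**Figure D4:**
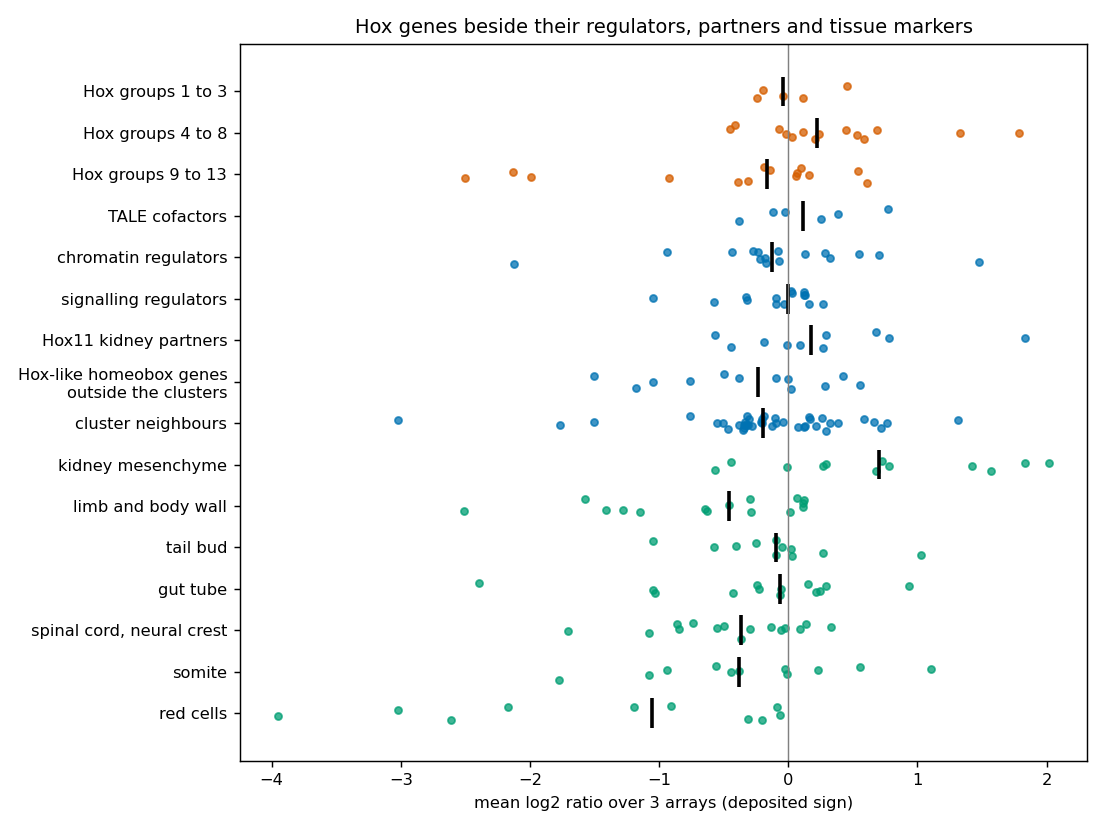
Mean log2 ratio over 3 arrays (horizontal axis, deposited sign) of each gene of the Hox family by position (orange), of lists of regulators, partners and cluster neighbours (blue) and of tissue markers (green), with a black bar at each median. Medians run from -1.05 for red cells to 0.70 for kidney mesenchyme, and the central and posterior Hox genes have medians of 0.22 and -0.16.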

How the data were processed

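The authors deposited a log2 ratio of both channels for each array and oligo (log base from the values). Per the labels, images were read with Imagene 5.5 and normalized in R by print-tip loess and between arrays, and a lowess fit over 20% of the data corrected the control channel, which had a floor of 10. The step order, the numerator, the array of the dye swap and the genome build are not given in the sources used here. Normalization of this kind sets the middle of the ratios near 0, and RNA amplification can alter single ratios.

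Of 22702 spots, 883 control spots were left out. Oligos of a symbol were averaged, those of several or no symbols kept unnamed, and 19635 genes with a value on all 3 arrays were tested against 0 (limma 3.58.1, R 4.3.3; intercept-only lmFit, eBayes, two-sided, Benjamini-Hochberg over all genes, threshold 0.05), which was tested on simulated data. Each unnamed oligo with a value on all 3 arrays counts as a gene among the 19635, and so enters every share of all genes. Errors are SDs over 3 arrays. An exact sign-flip test of 1 gene cannot go below a p of 0.25 here. Every tested Hox gene could be named. Of the lists, genes could be named if they had an unadjusted p under 0.05 or the highest or lowest mean. Not all such genes were named, and for somite, spinal cord and tail bud markers none were named as markers. All 3 antisense RNAs were named. Eya1, Pax2, Evx2, Cdx1 and Cdx4 were added after their values were seen. Members and lists were chosen with earlier results of these data known. Neighbours are the 5 nearest measured protein-coding genes on each side in the RefSeq table of GRCm38.p6. Alternatives left out each array, took oligos singly, admitted 2 arrays, rescaled or weighted the arrays, used robust eBayes or left out genes at the lowest ratio.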

Additional observations from a re-analysis of the deposited data

How the results depend on the processing

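In all 11 alternative settings 0 Hox genes passed limma over all genes, and the lowest adjusted p of any Hox gene lay between 0.0769 and 0.486. Of the 33 genes, 24 kept the sign of their mean in every setting. Those were all 12 of an unadjusted p under 0.05 and 12 others, and 9 genes did not keep it. All 12 had 1 sign on all 3 arrays, so leaving out or weighting arrays could not reverse their means. Robust eBayes and leaving out genes at the lowest ratio change no mean. The kept sign of the 12 is therefore no separate support for them. With 1 array left out the means ran from -0.28 to 0.34 for Hoxa7, -0.067 to 0.18 for Hoxc10, -0.44 to 0.075 for Hoxd1, -0.079 to 0.023 for Hoxa3, -0.17 to 0.30 for Hoxa4, -0.0046 to 0.45 for Hoxa6, -1.50 to 1.61 for Hoxc12, -0.51 to 0.51 for Hoxc8 and -0.60 to 0.25 for Hoxd12. With array weights Hoxc12 stood at -0.61, Hoxc8 at -0.22 and Hoxd12 at 0.0042, and after quantile normalization Hoxc12 stood at -0.010. The count of genes with an unadjusted p under 0.05 was 6 to 9 with 1 array left out, where fewer arrays enter the fit, and 11 or 12 otherwise. The 8 without array 2 and 9 without array 3 stand beside 10.5% and 19.9% of all genes. With 1 array left out the median was 0.27 to 0.35 for central, -0.20 to -0.081 for posterior and -0.079 to 0.075 for anterior genes. Spearman's rank correlation between paralogue number and mean was -0.33 to -0.24 with 1 array left out and -0.34 with Hoxa13 admitted on 2 arrays. Each ratio already pairs both tissues within an array, so the test against 0 is itself paired, and no further replicate block applies to a single group.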

Other observations

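Oligos for 3 antisense RNAs of the clusters, matched by gene identifier, were measured beside the Hox genes; the strand of each oligo was not stated, so signal of an overlapping sense gene cannot be told apart. Hoxaas3, which overlaps Hoxa5 and Hoxa6 in the RefSeq table, had 0.21, 0.31 and 0.25 on arrays 1, 2 and 3, a mean of 0.26 ± 0.052 (limma adjusted p = 0.440). It was positive on all 3 arrays, far below the 1.78 of Hoxa5. Hoxa11os, antisense to Hoxa11, had -0.083, -0.21 and -0.68 (mean -0.32 ± 0.31, limma adjusted p = 0.458), negative throughout where Hoxa11 had arrays on both sides. Hoxd3os1 had 0.25, 0.31 and -0.55 (mean 0.0037 ± 0.48).

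The genes that flank the clusters went both ways. Of 40 neighbours, 10 for each cluster, 4 were positive and 5 negative at an unadjusted p under 0.05 (8.99% and 7.83% of all genes), with a median of -0.20 and 0 past limma over all genes. The Hoxb cluster had the strongest flanks, with Snx11, a sorting nexin, at -1.99, -3.53 and -3.54, the RNA-binding protein gene Igf2bp1 at -1.89, -1.76 and -1.66, and the adaptor gene Skap1 at 1.53, 0.79 and 1.63. All 3 held 1 sign on all arrays. At the other clusters Evx1 by Hoxa stood at -1.50 ± 0.24 and was negative on all arrays, Tril and Snx10 by Hoxa at 0.76 ± 0.20 and 0.67 ± 0.027, Nfe2l2 by Hoxd at 0.72 ± 0.30, and Copz1 by Hoxc at -0.46 ± 0.20.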
